A study of Mus musculus with 3 samples.

Results

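The peaks described here are the REV-ERB alpha and REV-ERB beta binding sites around 4 genes of heme synthesis and drug metabolism in mouse liver: Alas1, Por, Nr1i3 and Ugt1a1. They were chosen by position, as every deposited peak whose centre lay in 1 of 4 windows of the mm9 assembly: chr9:106110000-106170000 for Alas1, chr5:136125000-136235000 for Por, chr1:173124000-173170000 for Nr1i3 and chr1:89930000-90200000 for the Ugt1a cluster and the region downstream of it. The windows were selected on peak positions and tag counts of these same lists, so the number and height of the peaks in them are a description and not a test. Of 24461 alpha peaks, 37 lay in the windows, and of 22097 beta peaks, 42. In mm9 no gene annotation was used here, so a peak is given the name of its window and is not assigned to a gene.

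The 3 libraries were a ChIP-seq library with an antibody against REV-ERB alpha, one with an antibody against REV-ERB beta, and an input library of liver chromatin with no antibody. All came from livers of male C57BL/6 mice aged 20 weeks, kept for 3 days on cycles of 12 hours of light and 12 hours of darkness and taken at zeitgeber time 8 (8 hours after lights on). The number of animals per library is not given in the sources used here, and the labels name no mutation and no drug treatment. Each antibody had 1 library, so no value below has a replicate error, and no cross-check of either antibody against tissue lacking its receptor was among the data used here.

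Both REV-ERB proteins are clock-controlled nuclear receptors that repress transcription, and heme is their ligand. ALAS1, the product of Alas1, is the first and rate-limiting enzyme of heme synthesis in the liver. POR hands electrons to the microsomal cytochrome P450 enzymes, which carry heme and oxidise drugs and steroids. The constitutive androstane receptor, encoded by Nr1i3, induces drug-metabolising genes, and UGT1A1 joins glucuronic acid to bilirubin, the breakdown product of heme, so that it can be excreted. The Ugt1a genes have separate first exons and share their last exons: in the RefSeq annotation (GRCm38.p6) 7 of 9 Ugt1a genes have the same 3' end as Ugt1a1, and Mroh2a, Hjurp and Trpm8 follow downstream of it. Among protein-coding genes, Alas1 neighbours Tlr9 and Poc1a there, Por lies between Rhbdd2 and Tmem120a, and Nr1i3 between Pcp4l1 and Tomm40l, with Apoa2 next to Tomm40l.

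The promoters of the 4 genes are shown because the windows were placed around these genes. They come from RefSeq (GRCm38.p6, 300 bases around the annotated start, 5' to 3' on the gene's strand). Since the peaks are in mm9, whether a peak lies on any of these stretches was not determined. Capitals mark GGTCA, the end of the hexamer that nuclear receptors bind, and CACGTG, the E-box bound by CLOCK and BMAL1. For Alas1, 1 of 2 listed starts is shown.
Alas1 (chr9:106247681-106247980, minus strand): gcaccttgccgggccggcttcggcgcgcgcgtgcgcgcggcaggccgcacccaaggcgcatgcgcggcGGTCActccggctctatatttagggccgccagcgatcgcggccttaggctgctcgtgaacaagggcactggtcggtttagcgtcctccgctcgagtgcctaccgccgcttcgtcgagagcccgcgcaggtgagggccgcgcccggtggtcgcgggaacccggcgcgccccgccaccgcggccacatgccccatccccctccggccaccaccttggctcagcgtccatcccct
Por (chr5:135688895-135689194, plus strand): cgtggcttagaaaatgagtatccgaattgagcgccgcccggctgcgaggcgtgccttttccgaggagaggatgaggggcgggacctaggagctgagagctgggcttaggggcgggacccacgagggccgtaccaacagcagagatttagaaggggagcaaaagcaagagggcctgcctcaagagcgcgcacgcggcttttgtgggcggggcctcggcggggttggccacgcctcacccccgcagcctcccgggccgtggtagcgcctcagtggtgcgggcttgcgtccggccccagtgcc
Nr1i3 (chr1:171213720-171214019, plus strand): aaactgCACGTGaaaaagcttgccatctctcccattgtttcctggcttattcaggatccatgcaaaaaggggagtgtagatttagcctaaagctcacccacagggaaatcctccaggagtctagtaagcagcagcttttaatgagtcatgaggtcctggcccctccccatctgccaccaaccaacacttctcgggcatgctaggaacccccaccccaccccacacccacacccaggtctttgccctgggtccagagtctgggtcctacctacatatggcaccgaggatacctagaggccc
Ugt1a1 (chr1:88211709-88212008, plus strand): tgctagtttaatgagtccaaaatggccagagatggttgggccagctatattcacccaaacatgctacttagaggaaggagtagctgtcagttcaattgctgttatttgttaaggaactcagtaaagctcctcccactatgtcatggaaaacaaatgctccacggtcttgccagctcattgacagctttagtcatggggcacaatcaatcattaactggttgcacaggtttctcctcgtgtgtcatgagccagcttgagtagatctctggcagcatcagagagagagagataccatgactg

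On both strands, the full hexamer AGGTCA was in none of these 4 promoters nor at the other Alas1 start. It was in 16.3% of the 32851 promoters searched. Promoters of 1 chromosome were left out before the search, so the shares of all promoters are of those searched. The longer RORE consensus, the element named for the ROR receptors that REV-ERB also binds, was in none of them either and in 0.384% of all promoters. GGTCA occurred once in the Alas1 promoter, at position -182 from the start, and in 40.5% of all promoters. CACGTG occurred once, in the Nr1i3 promoter at position -244, and in 7.15% of all promoters. TTATGNAA, a form of the D-box that DBP and NFIL3 bind, was in none of the 4 and in 3.38% of all. GGTCA is part of AGGTCA and of the RORE consensus, so these searches overlap. Of 14 further genes of heme and drug metabolism, 12 had a promoter among those searched, and Fech and Hmox1 had none there. AGGTCA was held by 3 (Rxra, Cyp3a11 and Ugt1a9) and the RORE consensus by 1, Cyp3a11. The peaks around these genes were not located, for want of mm9 annotation.

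A peak's height is given as tags, the raw count of sequenced tags in its fixed window, which was 153 bp for alpha and 210 bp for beta, so heights of the 2 receptors are not on 1 scale. The median peak of the whole list held 27.0 alpha or 39.0 beta tags. In the 4 windows 29 of 37 alpha peaks and 27 of 42 beta peaks were above these medians. A peak was called shared when it overlapped a peak of the other list by at least 1 bp. Of the members, 21 of 37 alpha peaks (56.8%) were shared with 21 of 42 beta peaks, beside 57.8% of all alpha peaks on chromosomes that both lists cover and 60.3% of all beta peaks. Peaks stood at 76.1 per Mb for alpha and 86.4 for beta in the windows, against 9.58 and 9.12 over the whole lists. The shared centres lay a median of 20.0 bp apart, beside 28.0 bp over all shared peaks of the lists. Within 50 bp lay 16 of 21, and that share was not computed for the whole lists.

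**Figure D1:**
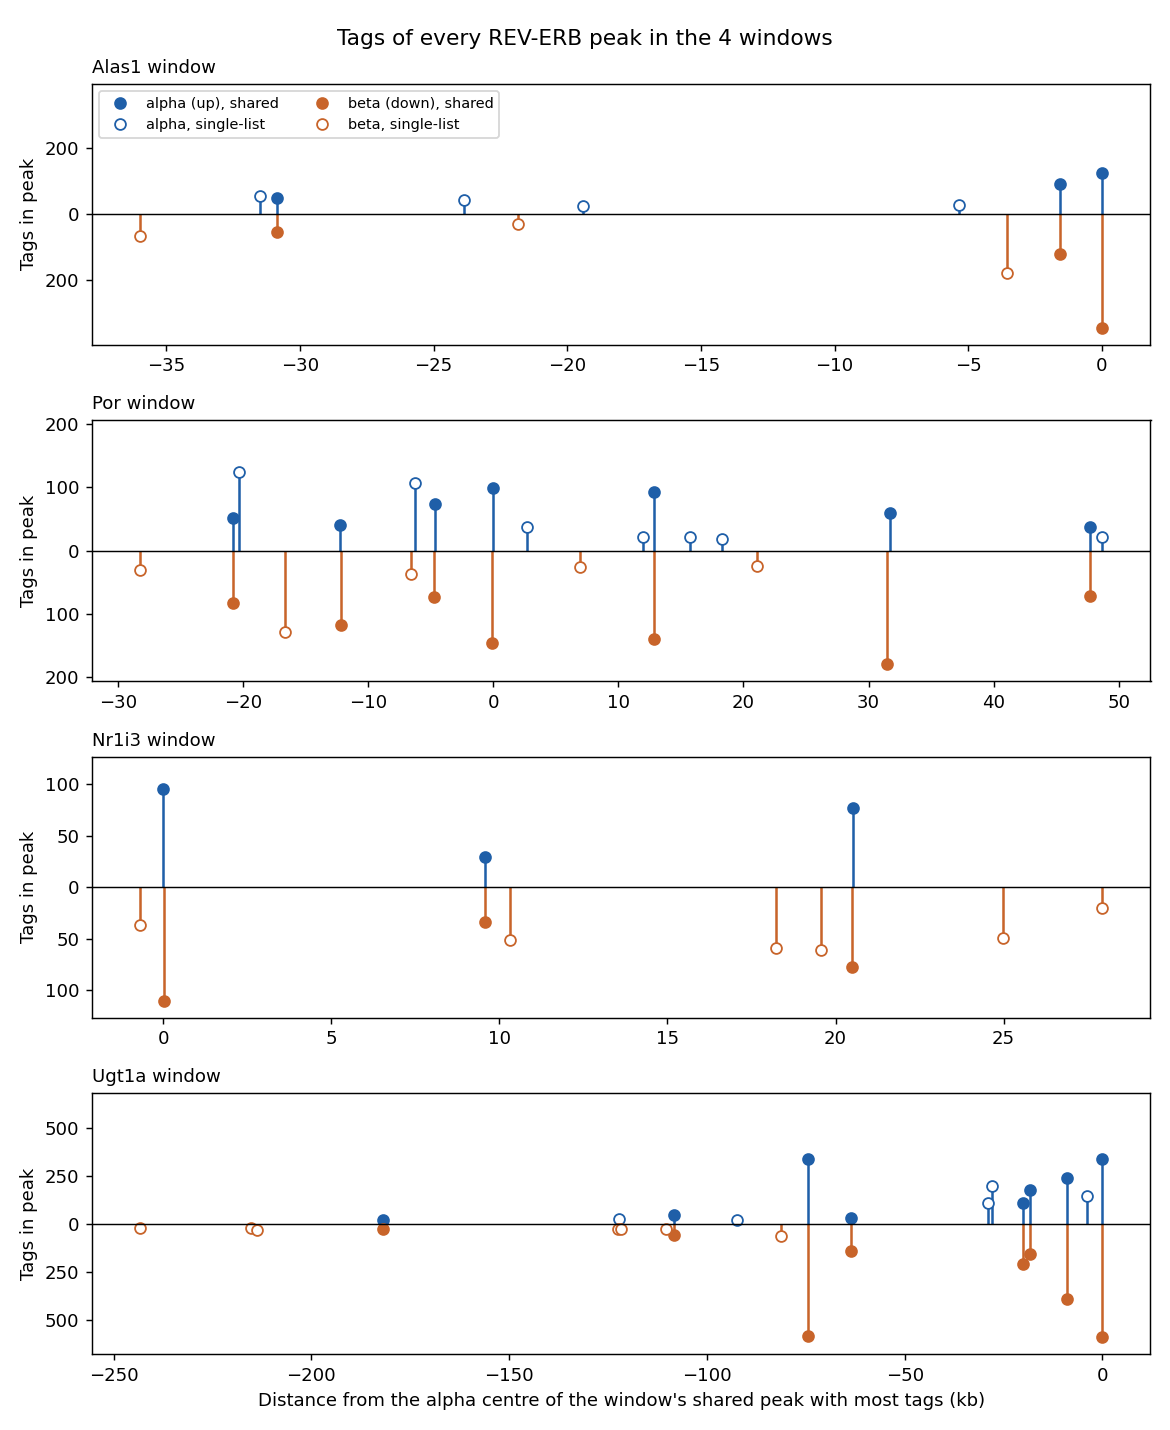
Tags (vertical axis) of each alpha peak, drawn upward, and each beta peak, drawn downward, by distance in kb from the shared peak with most tags in each of the 4 windows; filled points are shared peaks and open points are in 1 list only. In the Nr1i3 window 6 of 9 beta peaks are open and no alpha peak is. In the Ugt1a window the tall peaks are spread over the rightmost 74.5 kb of the peaks, with up to 339 alpha and 592 beta tags.

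Around Alas1 there were 7 alpha and 6 beta peaks, of which 3 were shared, and the tallest stood at the end of the window with the highest coordinates. The shared peak at chr9:106169364-106169516 held 126 alpha tags and 344 beta tags, against 8 and 9 input tags in the same windows. It was number 483 of the alpha list and number 61 of the beta list by tags. Its neighbour at chr9:106167805-106167957 held 92 alpha and 121 beta tags, with 10 and 11 input tags. The third shared peak, chr9:106138512-106138664, was lower, with 49 alpha and 53 beta tags. So of these 3 shared peaks, the one with most tags was also the one where the beta count exceeded the alpha count most.

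Each list also had peaks of its own around Alas1. The beta peak at chr9:106165773-106165983 held 177 tags against 3 input tags and overlapped no alpha peak. Its nearest alpha centre, that of chr9:106164030-106164182 with 29 alpha tags, was 1772 bp away. The alpha peak at chr9:106137867-106138019 held 56 tags and lay 648 bp from the nearest beta centre, beside the lower shared peak. The other single-list peaks held 24 and 44 alpha tags and 30 and 65 beta tags. Tags in no called peak of the same list were dense throughout: 29.1 to 51.9 alpha tags per kb and 29.7 to 54.5 beta tags per kb in the 10 kb around each peak, against list medians of 15.8 and 13.8.

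The Por window held the most alpha peaks, 14, with 12 beta peaks and 7 shared sites spread over its length. The shared peak with most tags, chr5:136171127-136171279, held 99 alpha tags and 146 beta tags, with 1 and 4 input tags. Next by summed tags came chr5:136202811-136202963, with 59 alpha and 179 beta tags. The site at chr5:136183941-136184093 held 93 alpha and 140 beta tags. These 3 sites thus had more beta than alpha tags, as most shared peaks of the lists do: the median alpha to beta ratio over all 13314 shared peaks was 0.688.

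The 4 lower shared sites of the Por window differed in that ratio. The site at chr5:136158916-136159068 held 40 alpha and 118 beta tags. At chr5:136166482-136166634 both receptors had 73 tags, and the input 3. At chr5:136150300-136150452 there were 52 alpha and 82 beta tags. The last, chr5:136218804-136218956, held 38 and 72 tags.

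Strong single-list peaks stood close to the shared ones around Por. The alpha peak with most tags in the window, chr5:136150773-136150925 with 124 tags against 5 input tags, overlapped no beta peak, although a beta centre lay 461 bp away. Likewise chr5:136164895-136165047 held 107 alpha tags and 2 input tags, with the centre of a beta peak of 36 tags 317 bp away. On the beta side, chr5:136154491-136154701 held 128 tags, with the nearest alpha centre at 3747 bp. The remaining 5 alpha-only peaks held 18 to 37 tags and the remaining 3 beta-only peaks 24 to 30 tags. Close peaks of this kind are listed as separate sites because their windows do not touch, and tags of the other receptor at a single-list peak were not measured here.

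Around Nr1i3 the lists differed in number: 3 alpha peaks, all of them shared, and 9 beta peaks, of which 6 were beta-only. The shared peak at chr1:173134526-173134678 held 95 alpha and 110 beta tags with 3 input tags in either window. It stood out from its surroundings more than nearly all others: its tags per bp were 89.9 times those of the rest of the 10 kb around it for alpha, at percentile 99.7 of the list, and 45.0 times for beta, at percentile 96.4. The peak at chr1:173155040-173155192 held 77 tags in both libraries, and that at chr1:173144088-173144240 held 29 alpha and 34 beta tags.

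The 6 beta-only peaks around Nr1i3 were of moderate height, with 20 to 61 tags. The tallest, chr1:173154077-173154287, held 61 tags but also 10 input tags, and chr1:173144823-173145033 held 51 tags with 11 input tags. Input at these 2 was therefore above that of most beta peaks, of which 2.75% had 10 input tags or more. Another 3 beta-only peaks had 3 input tags and 1 had none. For 3 of the 6 an alpha centre lay within 1 kb. With 3 alpha peaks, no share is read from this window.

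The Ugt1a window, the longest at 270 kb, held 13 alpha and 15 beta peaks with 8 shared sites, and its tallest peaks were among the tallest of the whole lists. Peaks in the upstream part were low: the 4 alpha peaks up to chr1:90092329-90092481 held 18 to 45 tags, and the 8 beta peaks up to chr1:90076325-90076535 held 22 to 59. At chr1:90110291-90110443 there were 339 alpha and 588 beta tags, number 10 of the alpha list and number 5 of the beta list. At chr1:90184770-90184922 there were 336 and 592 tags, number 11 and number 4. Between these lay chr1:90175764-90175916 with 236 alpha and 394 beta tags, chr1:90166417-90166569 with 177 and 158, and chr1:90164786-90164938 with 110 and 209.

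Input was high at the same sites. At chr1:90110291-90110443 the alpha window held 35 input tags and the beta window 45, the highest input count of any peak in either list. At chr1:90184770-90184922 there were 25 and 39 input tags. The other 3 shared sites named above held 13, 12 and 11 input tags in their alpha windows, in order along the chromosome. The input of both lists is counted from 1 library, so the values of the alpha and beta windows at a shared site are not separate measurements. Over the whole lists the mean input was 2.66 tags in alpha windows and 3.59 in beta windows.

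Counted by a floor of 10 input tags, set after the values were seen, 8 of 13 alpha peaks and 5 of 15 beta peaks of the Ugt1a window had high input, against 0.769% of all alpha peaks and 2.75% of all beta peaks. The 8 alpha peaks spanned 74.5 kb. Of the 13 alpha peaks in the whole list with at least 15 input tags, 4 were among them, and of the 5 with at least 20, 2. Outside Ugt1a, the members with 10 input tags or more were 1 alpha and 1 beta peak of the Alas1 window and the 2 beta peaks of the Nr1i3 window named above. The Por window had none in either list.

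**Figure D2:**
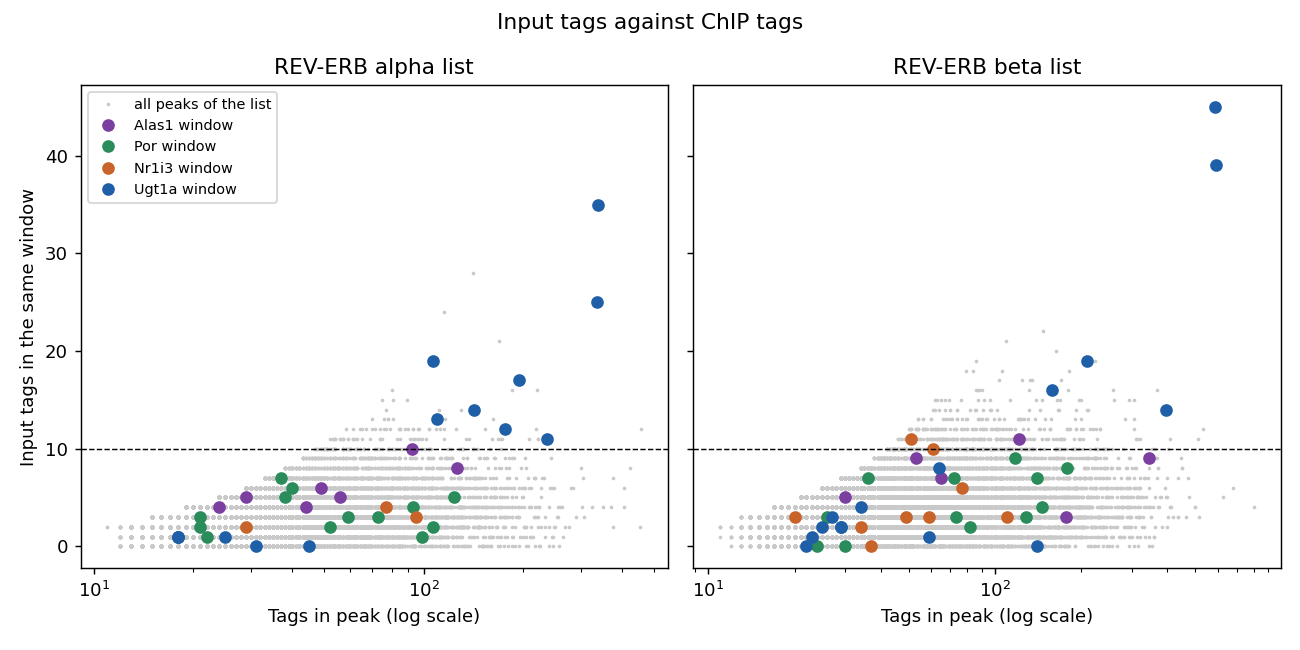
Input tags (vertical axis) against ChIP tags on a log scale (horizontal axis) for every peak of the alpha list (left) and the beta list (right) in grey, with the peaks of the 4 windows in colour; the dashed line is at 10 input tags. Ugt1a peaks hold the highest input count of each list, 35 and 45 tags.

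The signal around these Ugt1a peaks was raised as well, in both ChIP libraries. Around the 8 alpha peaks with high input, the 10 kb region held 1284 to 1537 alpha tags, against a list median of 203.0. After the tags of all called alpha peaks were taken away, 90.4 to 126 tags per kb were left, where the list median was 15.8 and its 99th percentile 50.9. Around the 5 beta peaks the remainder was 78.9 to 129 tags per kb against a median of 13.8, and the highest of these, around chr1:90175757-90175967, was the highest of the whole beta list. In both lists several of these 10 kb regions overlap, so their values are not separate measurements. Input, surroundings and tags were thus all high at these sites. The sites with most input, chr1:90110291-90110443 and chr1:90184770-90184922, also had the most tags in both lists. Surroundings did not rank the alpha sites as tags did. The second tallest alpha peak, chr1:90184770-90184922, had the lowest remainder of the 8, 90.4 tags per kb, and the one with the fewest tags, chr1:90155897-90156049 with 107, had 125. The part of input and surroundings in the tag counts was not tested.

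Measured against input or surroundings, the same peaks ranked lower. They were picked for high input, so a lower place by fold over input is partly built in. Tags plus 1 over input tags plus 1 was 9.44 for alpha and 12.8 for beta at chr1:90110291-90110443, beside list medians of 9.0 and 10.0 (10.5 and 12.0 as plain ratios, with peaks of 0 input set at the 3 tags that a count of 0 allows). As plain ratios this site stood at 9.69 and 13.1, so the alpha value was below its list median. At chr1:90184770-90184922 tags plus 1 over input tags plus 1 was 13.0 and 14.8. By tags, all 8 high-input alpha peaks stood at percentile 96.7 or higher. By fold over input they stood between percentiles 19.2 and 83.2, with a median of 57.0, and by density over the surrounding 10 kb between 6.61 and 82.7, with a median of 43.2. For the 5 beta peaks the median percentile was 61.3 by fold and 59.7 by density. The median fold was 10.2 for the 8 alpha peaks and 12.8 for the 5 beta peaks. Among all peaks of each list with at least 10 input tags, these included, it was 6.25 for alpha and 6.71 for beta. The windows were selected on tag counts, which are the numerator of the fold, so this difference is partly built in too. These folds are of raw counts and are not scaled to the depth of the libraries, so their absolute size cannot be read. Their place in the list depends on the number added to both counts. Of the 8 alpha peaks, 6 were above the list median with 1 added, 4 with 0.5 and 7 with 3. Of the 5 beta peaks these counts were 4, 3 and 5.

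**Figure D3:**
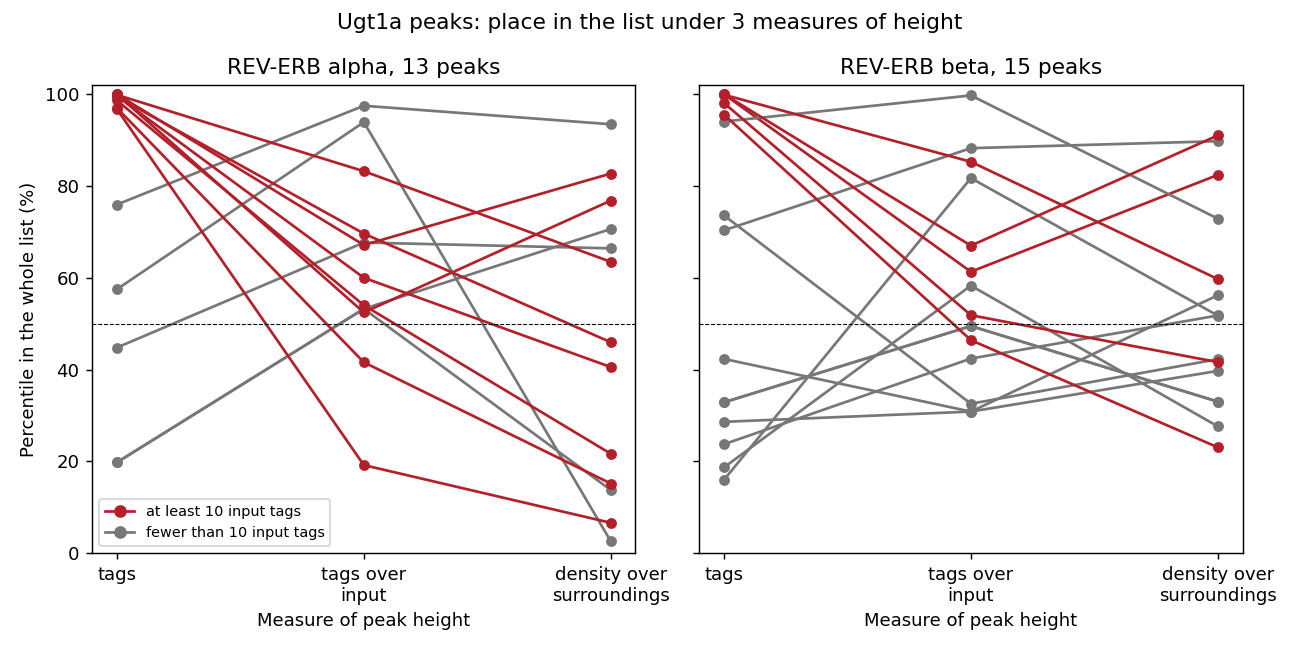
Percentile in the whole list (vertical axis) of each Ugt1a peak by tags, by tags over input and by density over its surroundings, for 13 alpha peaks (left) and 15 beta peaks (right); red lines are peaks with at least 10 input tags and the dashed line is the middle of the list. All red alpha lines start at percentile 96.7 or higher and fall to between 19.2 and 83.2 by tags over input. Red peaks were picked by input, so this fall is partly built in.

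Of the 8 alpha peaks with high input, 5 were shared and 3 had no overlapping beta peak. On chromosomes that both lists cover, 57.8% of all alpha peaks were shared, and the share among equally tall peaks was not computed. The alpha peak at chr1:90156773-90156925 held 195 tags with 17 input tags, and no beta centre lay nearer than 8034 bp. The one next to it, chr1:90155897-90156049, held 107 tags against 19 input tags, a fold of 5.40 at percentile 19.2 of the list. The third, chr1:90180884-90181036, held 142 tags against 14 input tags, with the nearest beta centre at 3855 bp. All 5 beta peaks with high input were shared, beside 60.3% of all beta peaks. The tallest beta-only peak of the window was chr1:90103499-90103709, with 64 tags and 8 input tags.

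Between the 2 tallest Ugt1a sites lay 1 shared site with no input tag at all. At chr1:90121167-90121319 there were 31 alpha tags and 140 beta tags with 0 input tags in both windows. With the input set at the 3 tags that a count of 0 allows, the ratio of raw tags to input was 10.3 for alpha, beside the list median of 10.5 on the same basis, and 46.7 for beta, beside 12.0. Its surroundings, at 46.5 alpha and 35.9 beta tags per kb outside peaks, were above the list medians but well below those of the high-input peaks. Among the low upstream sites, chr1:90076377-90076529 also had little input, with 45 alpha tags against 0 and 59 beta tags against 1. The shared site farthest upstream, chr1:90002826-90002978, held 18 alpha and 25 beta tags, at percentiles 19.8 and 23.7 of the lists by tags.

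The balance of the receptors was read as the ratio of alpha to beta tags, divided by the median of all shared peaks, with 2-fold from that median as the size rule. The 95% intervals were computed by the exact Clopper-Pearson method from the alpha and beta tags of a site; they compare 2 libraries, cover counting error only and take repeated tags as independent. None of the 21 shared members was 2-fold higher in alpha, against 8.40% of all shared peaks, and 3 were 2-fold higher in beta, against 9.71%. The median over the members was -0.05 on the log2 scale. Of the 21 intervals 3 lay above the median ratio, 7 below it and 11 covered it. The same count over all shared peaks was not made, and intervals narrow as tags rise. No trait of these sites is therefore read from it.

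The site farthest to the beta side was the Ugt1a site without input, chr1:90121167-90121319, at 3.10-fold below the median ratio (log2 -1.63, interval -2.25 to -1.06). Its alpha peak was at percentile 2.58 by density over the surroundings. The other 2 sites beyond 2-fold were the Por sites at chr5:136202811-136202963 (log2 -1.06, interval -1.51 to -0.63) and chr5:136158916-136159068 (log2 -1.02, -1.58 to -0.49), whose intervals cross the size rule. The first of these Por sites has centres 178 bp apart, the widest of the 21 pairs, so its 2 windows share few bases. With tags at unique positions, only the Ugt1a site kept a 2-fold lean (log2 -1.21), and the Por sites came to -0.90 and -0.96. With tags over input, the Por site at 136202811 came to log2 -0.21 and the other to -0.82, so that neither was 2-fold, and the Ugt1a site to -1.93.

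Next to the size rule, just inside 2-fold, stood the tallest Alas1 site, chr9:106169364-106169516, at log2 -0.91 (interval -1.21 to -0.61). With tags over input it was beyond 2-fold, at -1.08. On the alpha side, the highest value was that of the Ugt1a site chr1:90166417-90166569, at log2 0.70 (0.39 to 1.02). Its neighbour chr1:90164786-90164938 leaned slightly the other way, at -0.39 (-0.73 to -0.05). The 3 Nr1i3 sites had values above 0, but for 2 of them the interval covered the median ratio: chr1:173134526-173134678 at 0.33 (-0.08 to 0.74) and chr1:173144088-173144240 at 0.31 (-0.46 to 1.07). With tags over input these 2 came to -0.003 and -0.02. The third, chr1:173155040-173155192, was at 0.54 (0.07 to 1.02), and at 0.69 with tags over input. The 2 tallest Ugt1a sites were close to the median ratio, at -0.25 (-0.45 to -0.06) and -0.28 (-0.47 to -0.08).

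**Figure D4:**
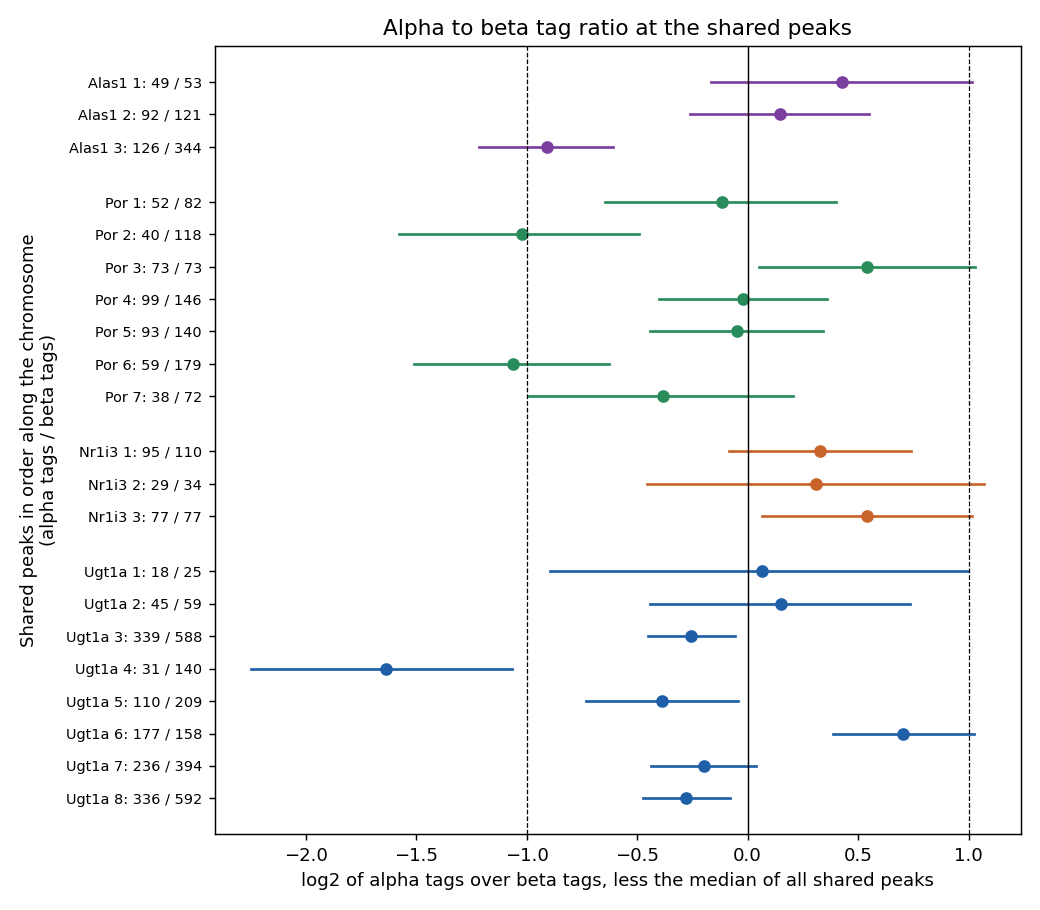
Log2 of alpha tags over beta tags, less the median of all shared peaks (horizontal axis), for the 21 shared peaks in order along the chromosome, with 95% exact intervals of counting error; labels give alpha and beta tags and the dashed lines mark 2-fold. Only 3 points lie beyond the line on the beta side and none beyond the line on the alpha side.

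The bounds of the windows decided membership at some edges. In the Alas1 window the tallest peak of both lists lay 560 bp inside the bound by its alpha centre (126 alpha tags), and the next shared site, with 37 alpha and 109 beta tags, lay 4801 bp outside by its alpha centre. Before the Por window a shared site of 40 alpha and 74 beta tags lay 2909 bp outside. After the Ugt1a window the next alpha peak held 16 tags at 15477 bp, and the next beta peak 88 tags at 103547 bp. Nearest to the Nr1i3 window was a beta peak of 29 tags, 7437 bp beyond it.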

How the data were processed

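Per the submitters' processing notes, reads were handled with Bowtie (alignment) and HOMER (peaks) on mm9. Tool versions, read filters and library depth were not given in the sources used here. Per the labels' protocols, crosslinking took 30 minutes in disuccinimidyl glutarate (2 mM) and 10 minutes in formaldehyde (1%). The authors deposited 1 peak list per antibody with raw tag counts per peak, unscaled per the file headers: tags in the window, input tags there, tags at unique positions, and tags of the surrounding 10000 bp. The deposited peak score was used only for a common lowest score, and the deposited FDR, the peak caller's q-value, is 0 in every row. Chromosome 8 carries 1415 alpha peaks and 0 beta peaks in the lists used here, so it is left out of the share of alpha peaks that overlap a beta peak; the other alpha values over the whole list include it.

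Overlaps, ratios and percentiles were computed over the whole lists (Python 3.11.15, numpy 2.4.6, pandas 2.3.3, scipy 1.17.1), and only the members are printed. Densities per Mb use the span from first to last peak of each chromosome. Tags outside peaks leave out every called peak of the same list whose window lies in the 10 kb. The rule for named sites was every shared peak (at least the 6 with most summed tags per window) and the single-list peak with most tags in each window and list. The members, gene lists and measures were chosen with earlier results of these data known. Matching and the ratio rule were tested on simulated data. The simulated sites lay far apart and the ratios carried counting error only, so close peaks and repeated tags were not covered. The planned search of peak sequences was not made, as no mm9 sequence was used here. 1 gene of the planned list is not reported here.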

Additional observations from a re-analysis of the deposited data

How the results depend on the processing

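With 1 library per antibody no library could be left out, and no paired analysis was possible because each group had 1 sample. The numbers of alpha peaks (37), shared peaks (21) and, other than in 1 setting, beta peaks (42) in the windows stayed within 1.5 times under the alternatives run; in the top 50% of the list by tags 27 beta peaks were left, a filter that removes low peaks by construction. Without peaks of 10 or more input tags, chosen after the data were seen, 15 of 21 shared sites were left. The 3 shared peaks at least 2-fold higher in beta became 1 with unique positions, 1 with the centre taken from peaks above the median height and 2 with tags over input, where only the Ugt1a site at 90121167 (-1.93) was among the 3 and the Alas1 site at 106169364 (-1.08) was not; 0 were higher in alpha in each of these. The ratio changed sign at 6 of 21 sites with tags over input, none of them at 2-fold or more. The largest shift was at the Por site at 136171127, from log2 -0.02 to 0.97, where the input was 1 and 4 tags. Of the 8 high-input Ugt1a alpha peaks, 6 had a fold over input above the list median, against 4 with a pseudocount of 0.5, 7 with a pseudocount of 3 and 3 by density over the surroundings. With a floor of 15 input tags, chosen after the data were seen, 4 alpha peaks had high input in place of 8. The cause of these differences was not tested. Depth limits the low peaks: 18 alpha against 25 beta tags gave an interval of -0.89 to 1.00 on the log2 scale.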
